A study of Monascus purpureus with 6 samples.

Results

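Among the transcripts of *M. purpureus*, 127 genes of the 7491 listed stood low in 1 culture of the parental strain, YY-1 culture c, and they are the subject here. A gene was taken when it had at least 50 counts in both YY-1 a and YY-1 b and when its CPM (counts scaled to a common library total) in YY-1 c was at most 0.55 of the lower of those 2 libraries. Of 6683 genes with the count minimum, 138 passed the ratio limit. The genes C5.121 to C5.137 around the pigment cluster (2 dropped), C6.120 to C6.135 around the citrinin cluster (1 dropped) and the 15 outermost genes at each end of scaffolds C1 to C8 (8 dropped) were then left out. A further condition, which drops genes whose lowest winter CPM is at least 3 times their highest YY-1 CPM, removed no gene.

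The study set the winter strain, a hygromycin-resistant insertional mutant that makes little citrinin, against its parent YY-1, with 3 libraries for each strain named a, b and c. Winter is a single transformant obtained by random insertion of a hygromycin resistance cassette into YY-1 protoplasts, so the strain contrast is that of 1 line with its parent, and no other genotype or agent sets the groups apart in the labels. Mycelia of both strains were harvested after the eighth day of cultivation, during pigment production, and the study describes the libraries as independent biological triplicates. Nothing in the labels sets YY-1 culture c apart from cultures a and b.

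*Monascus* pigments are azaphilones. A non-reducing polyketide synthase (PKS) builds the chromophore core, an acyltransferase attaches a fatty acyl chain made by a dedicated fatty acid synthase (FAS), and oxidoreductases shape the yellow and orange forms, while red forms arise when an amine takes the place of the pyran oxygen. As is usual for fungal secondary metabolism, most of these genes lie side by side in a cluster, here on scaffold C5, and a gene that is regulated with a pathway may also lie elsewhere in the genome. Citrinin is a separate polyketide of the same fungus, with a nephrotoxic action.

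The libraries held 15194009 to 16004947 counts in winter and 9661178 to 10595943 counts in YY-1. TMM scaling factors, which correct for the make-up of a library, ran between 0.918 and 1.04 in winter and between 0.951 and 1.10 in YY-1, with YY-1 c at 0.951. The same rule was applied to each library against the other 2 of its strain. In winter a, b and c, 30, 6 and 0 genes stood low and 7, 63 and 0 stood high, against 9, 0 and 138 low and 10, 79 and 71 high in YY-1 a, b and c. YY-1 c thus had the most genes of any library below the ratio limit, and it had genes above the mirrored limit as well.

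**Figure D1:**
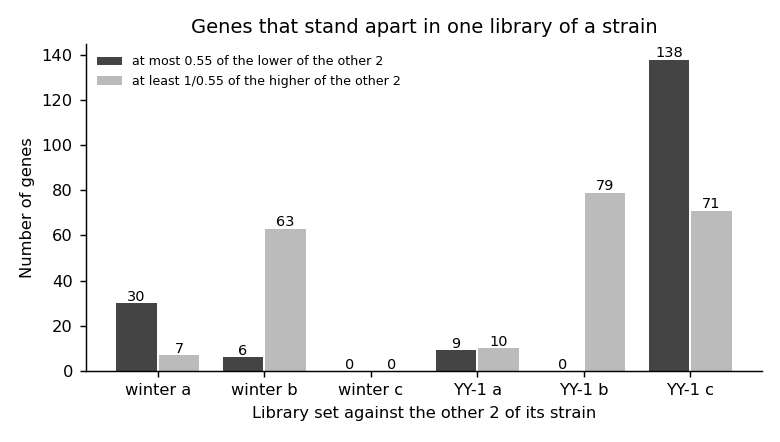
Number of genes (y axis) that stood apart in each library (x axis) from the other 2 libraries of its strain, low (dark bars) or high (light bars), before any gene was left out. YY-1 c had 138 low genes, and the next largest number of low genes was 30, in winter a.

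The ratio of YY-1 c to the lower of YY-1 a and b had a median of 0.486 over the 127 genes and of 0.946 over all genes with the count minimum. These values chose the genes and are given as a description, with no test. The ratio was at most 0.5 in 72 genes and at most 0.4 in 18. Nearest inside the limit were C5.737 and C4.892, at 0.549 each, and C2.671, at 0.55, and nearest outside were C7.169 at 0.551, C2.22 at 0.551 and C2.115 at 0.553. No step in the values therefore separated the genes from those just above the limit. With TMM factors in the CPM, the median ratio was 0.547 over the members and 1.07 over all genes with the count minimum, and 64 of the 127 genes stayed at or under 0.55.

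The genes ranged widely in level. Their mean CPM in YY-1 a and b ran from 5.35 to 1810 with a median of 19.6, and 43 genes were under 10 CPM, 59 were between 10 and 100, and 25 were at 100 or more. CPM is not corrected for gene length, so these levels do not rank the genes against each other. In YY-1 c the genes had 9 to 9168 counts, with a median of 90, and in 123 of the 127 the 95% Poisson interval in YY-1 c, which covers counting error only, lay below those in YY-1 a and b. The same YY-1 counts chose the genes, so the number with separate intervals is shaped by the rule and is a description. YY-1 a and b were within 1.5-fold of each other for 113 genes.

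The furthest down in YY-1 c was C5.696, with 2.999, 3.620 and 3.801 CPM in winter a, b and c, against 6.52, 7.64 and 0.889 CPM in YY-1 a, b and c. Its ratio of 0.136 rests on 9 counts in YY-1 c, for which the 95% Poisson interval is 0.407 to 1.69 CPM. All winter libraries lay between YY-1 c and the other YY-1 libraries, and the strain difference was not called (log2 fold change of winter over YY-1 -0.41, adjusted p = 0.512). C8.555 had 3.19, 2.90 and 3.48 CPM in winter, against 24.1, 57.2 and 5.1 CPM in YY-1 a, b and c. Here all winter libraries were below YY-1 c too, and the YY-1 libraries themselves were far apart. The next lowest ratios belonged to scaffold00023.19 (0.232), C1.980 (0.314), C6.766 (0.320) and scaffold00023.4 (0.337).

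In summed CPM the 127 genes came to 4265, 4266 and 4333 in winter a, b and c, against 11521, 11110 and 4743 in YY-1 a, b and c. By these sums the winter libraries were close to YY-1 c and well under YY-1 a and b. The rule took YY-1 a and b to be high and YY-1 c to be low, so this is a description. Genes with many counts weigh most in the sums, and gene by gene winter was often not close to YY-1 c. Winter had medians of 46%, 148%, 160% and 327% of YY-1 c in the classes described below, in the order given there. The median gene stood at 45.4%, 46.6% and 44.8% of its mean in YY-1 a and b in winter a, b and c, against 44% in YY-1 c. Over all genes with the count minimum the same medians were 82.6%, 93.6% and 85% in the winter libraries and 85.1% in YY-1 c. Lower transcript levels per cell and fewer cells of a kind in the mycelium cannot be told apart in bulk RNA.

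The pigment genes went another way in winter. The 8 pigment genes named in the study's text summed to 32156, 26949 and 31256 CPM in winter a, b and c, against 12223, 10963 and 6500 CPM in YY-1 a, b and c. Their median was 330%, 250% and 277% of the mean of YY-1 a and b in winter, against 55.8% in YY-1 c. In YY-1, then, 7 of these genes were also lower in culture c than in a and b, with ratios of 0.534 to 0.632. Only C5.127 (a FAS gene) and C5.137 (the PKS) would have passed the ratio limit had their block not been left out. The eighth, C8.16, which encodes an oxidoreductase, had a ratio of 2.22. All 8 were higher in winter, with a median log2 fold change of 1.76, while the median over the 127 genes was -0.71. The study's text names the 8 pigment genes together with their rise in these same libraries. Their direction was thus known when the list was drawn up and is no separate evidence. The median log2 fold change over all tested genes was -0.03.

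**Figure D2:**
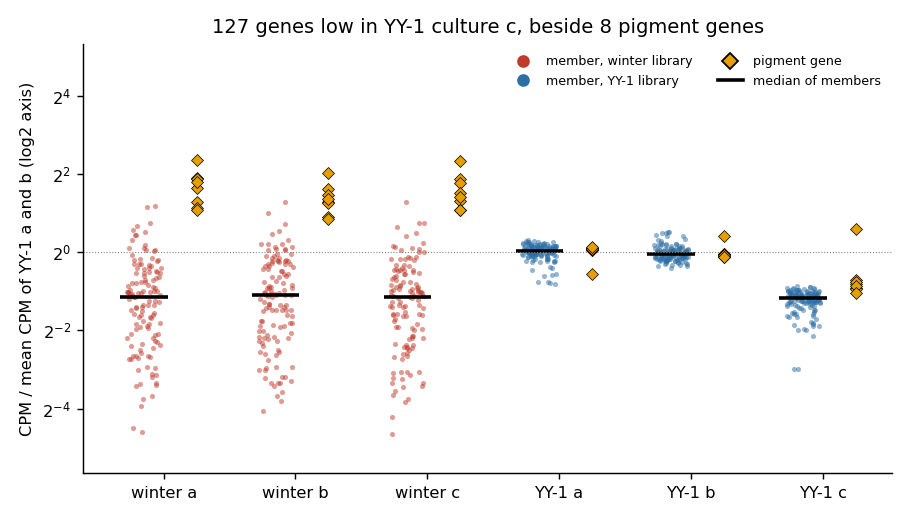
CPM of each of the 127 genes (points) and of the 8 pigment genes (diamonds) divided by the mean CPM of YY-1 a and b, on a log2 axis, in winter a to c and in YY-1 a to c; black bars are medians of the 127 genes. The median gene was at 45.4%, 46.6% and 44.8% in winter and at 44% in YY-1 c, whereas the pigment genes were above 100% in all winter libraries and, with the exception of C8.16, below it in YY-1 c.

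Of the 127 genes, 61 were lower in winter than in YY-1 (48%) and 7 were higher (5.51%), by edgeR's quasi-likelihood test with Benjamini-Hochberg adjustment over 7355 tested genes. Over all tested genes the shares were 25.5% lower and 22.5% higher. All 127 genes were among the tested ones, and 59 were not called, with log2 fold changes between -1.04 and 0.67. With a change of over 2-fold required as well, 51 were lower and 4 higher, and the shares over all tested genes were 12% and 8.92%. Since YY-1 a and b were taken to be high and YY-1 c low, the rule itself shapes the YY-1 side of this comparison, and these shares are descriptions. DESeq2's Wald test called 65 lower and 7 higher (all tested genes 25.2% and 24.7%), and a fit with the letters a, b and c as a replicate block called 63 and 7 (27.1% and 25.1%).

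Leaving out YY-1 c, 83 of the 127 were lower in winter and 7 higher, beside 25.6% and 21.8% of all genes tested without it. Each of the 61 and of the 7 kept its call, and the median log2 fold change was -0.99 against -0.71 with all 6 libraries. The rule used YY-1 a and b too, and taking away the library chosen to be low raises the YY-1 mean of every one of these genes, so the larger number is set by the choice of genes and is no separate evidence. Against YY-1 c by itself the picture was mixed: the winter mean was below YY-1 c for 58 genes (45.7%), where the share over all genes with the count minimum was 47.5%, and all 3 winter libraries were above YY-1 c for 60 genes (47.2%, beside 41.1%).

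All winter libraries were below both YY-1 a and YY-1 b for 100 of the 127 genes (78.7%, beside 42.7% of all genes with the count minimum). By where the winter libraries lay, the 127 genes fell into 4 classes. In 50 genes (39.4%), all winter libraries were below all YY-1 libraries, a share not far above the 33.2% of all genes with the count minimum. The winter mean of these 50 was 6.25% to 48.2% of the mean of YY-1 a and b, with a median of 18%. All 50 were called lower. In 34 genes the winter libraries lay between YY-1 c and the other YY-1 libraries, a gap that the rule makes (3.14% of all genes with the count minimum), and 1 of these was called. In 37 genes the strains overlapped in some other way, and 10 were called lower and 1 higher. In 6 genes (4.72%) all winter libraries were above all YY-1 libraries, and all 6 were called higher. Over all genes with the count minimum, 23.8% had all winter libraries above YY-1 a and b, a share that leaves YY-1 c out of account. These classes are drawn from the values themselves and are a description.

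Under 10 CPM 11 of 43 genes were lower in winter, a share of 25.6% that equals the 25.6% of all tested genes at that level. Between 10 and 100 CPM 33 of 59 were lower (55.9%, background 23.5%), and at 100 CPM or more 17 of 25 (68%, background 30%), with 1, 5 and 1 genes higher (backgrounds 20.9%, 24.2% and 19.7%). The winter mean was at most 25% of the mean of YY-1 a and b in 33 of the 127 genes (26%, beside 3.52% of all genes with the count minimum) and at most 10% in 7 (5.51%, beside 0.658%). YY-1 a and b, which the rule took to be high, are the base of these percentages.

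**Figure D3:**
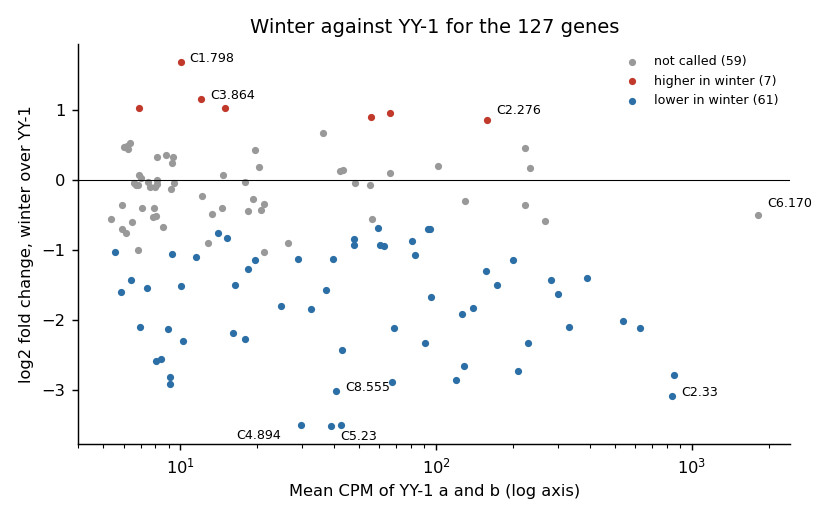
Log2 fold change of winter over YY-1 (y axis) against the mean CPM of YY-1 a and b (log x axis) for the 127 genes, coloured by the edgeR call at an adjusted p below 0.05. The 61 genes called lower reach -3.52, and the 7 called higher reach 1.68.

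C5.23 had the largest fall. It had 2.56, 3.82 and 1.55 CPM in winter, against 40.8, 37.2 and 20.1 CPM in YY-1 a, b and c, and its log2 fold change was -3.52 (SE 0.31, adjusted p = 1.75e-05). Even YY-1 c was several times above the highest winter library. Its listed neighbour C5.22 was also one of the 127 genes and was lower in winter, at 2.69 ± 0.925 CPM in winter and 8.28 ± 3.15 CPM in YY-1 (SD, n = 3 each).

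C4.894 had 2.19, 1.78 and 1.61 CPM in winter, against 34.3, 25.2 and 9.58 CPM in YY-1, and its log2 fold change was -3.50 (SE 0.40, adjusted p = 8.48e-05). C6.543 had 1.87, 3.55 and 3.16 CPM in winter, against 49.1, 36.2 and 19.6 CPM in YY-1, with a log2 fold change of -3.50 (SE 0.32, adjusted p = 2.12e-05). In both, each YY-1 library was above the highest winter library. C8.555 (log2 fold change -3.02, adjusted p = 0.00273) and C1.972 (-2.92, adjusted p = 0.0018) fell too, but their YY-1 libraries spread widely. C1.972 had 0.375, 1.19 and 0.966 CPM in winter, against 5.28, 13.0 and 2.47 CPM in YY-1 a, b and c.

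C2.33 joined a high level to a large fall. It had 77.5, 65.8 and 66.7 CPM in winter, against 979, 693 and 279 CPM in YY-1 a, b and c, and its log2 fold change was -3.09 (SE 0.36, adjusted p = 9.89e-05). The winter libraries were within a narrow range, and the YY-1 libraries spread over more than 3-fold. Its neighbour C2.34 was lower as well, with 18.1 ± 2.02 CPM in winter and 37.5 ± 17.8 CPM in YY-1 (SD, n = 3 each), yet there the winter libraries overlapped YY-1 c, which had 17.2 CPM.

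Other genes with many counts behaved alike. C1.1168 had 98.5, 93.4 and 60.2 CPM in winter, against 485, 1215 and 229 CPM in YY-1, and its log2 fold change was -2.79 (SE 0.47, adjusted p = 0.000894). C8.210 had 93.7, 125 and 114 CPM in winter, against 668, 585 and 305 CPM in YY-1 (log2 fold change -2.12, SE 0.25, adjusted p = 8.75e-05). C7.168 had 106, 91.3 and 97.8 CPM in winter, against 598, 479 and 225 CPM in YY-1 (log2 fold change -2.02, SE 0.29, adjusted p = 0.000314). In each of these the lowest YY-1 library, culture c, was above all winter libraries.

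C6.170, the gene with the most counts of the 127, was different. It had 971, 952 and 1032 CPM in winter, against 1956, 1665 and 906 CPM in YY-1 a, b and c. All winter libraries were just above YY-1 c and far below YY-1 a and b, and the difference was not called with all libraries (log2 fold change -0.50, adjusted p = 0.12), while without YY-1 c it was -0.73 with an adjusted p of 0.0131. The call thus turned on YY-1 c, the library that the rule required to be low. Leaving it out raises the YY-1 mean of C6.170 by the choice of genes, so the second value is no separate evidence.

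The 7 genes higher in winter were C1.798, C3.864, C5.26, C5.818, C8.357, C1.904 and C2.276, so their strain difference had the sign of that of the pigment genes. C1.798, which the study's annotation table puts under the broad term catalytic activity, had 22.7, 24.6 and 24.3 CPM in winter, against 11.6, 8.49 and 4.05 CPM in YY-1 a, b and c. The groups did not overlap, and the log2 fold change was 1.68 (SE 0.27, adjusted p = 0.000644). C3.864, listed under cation binding, had 17.8, 24.4 and 20.1 CPM in winter, against 12.4, 11.7 and 5.93 CPM in YY-1, and its log2 fold change was 1.15 (SE 0.23, adjusted p = 0.00204). C5.818, for which no role is given, had 9.31, 11.4 and 11.5 CPM in winter, against 7.56, 6.23 and 3.36 CPM in YY-1 (log2 fold change 1.02, SE 0.24, adjusted p = 0.00622). In all of these YY-1 c was the lowest of the 6 libraries and every winter library was above YY-1 a and b.

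The other 4 rises were less firm. C2.276 had 228, 199 and 210 CPM in winter, against 150, 168 and 66.1 CPM in YY-1, without overlap (log2 fold change 0.86, SE 0.26, adjusted p = 0.0216). C5.26 had 33.5, 20.9 and 16.8 CPM in winter, against 15.01, 15.01 and 8.20 CPM in YY-1, where winter a stood well above the other winter libraries (log2 fold change 1.02, SE 0.29, adjusted p = 0.0154). C1.904 had 88.5, 61.3 and 78.5 CPM in winter, against 53.4, 57.8 and 22.8 CPM in YY-1 (log2 fold change 0.90, adjusted p = 0.0232). C8.357, listed under terms of nuclear transport and membrane association, had 110, 69.04 and 104 CPM in winter, against 72.6, 59.3 and 28.0 CPM in YY-1, so that winter b fell below YY-1 a (log2 fold change 0.95, adjusted p = 0.0236). Without winter a the number of genes called higher was 3 in place of 7, and the adjusted p of these 4 genes was then 0.0504, 0.0505, 0.0614 and 0.0594 for C2.276, C5.26, C1.904 and C8.357.

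Likeness to the pigment genes was measured as Pearson's r between log2(CPM + 1) of a gene and the mean of the 8 pigment genes over the 6 libraries. The libraries fall into 2 strains that differ widely in the pigment genes, and r includes the YY-1 values that chose the genes, so it is a description. The genes most like the pigment genes were C1.798 (r = 0.97), C3.864 (r = 0.92), C5.818 (r = 0.91) and C2.276 (r = 0.86). Least like them were C5.23 (r = -0.90), C6.543 (r = -0.88), C3.359 and C3.435 (r = -0.87 each). Over all 127 genes r had a median of -0.43, 38 genes were above 0 and 89 below. No r over all genes with the count minimum is given, so these numbers have no background beside them.

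C3.359 and C3.435 had the opposite strain difference to the pigment genes throughout. C3.359 had 6.62, 7.24 and 6.64 CPM in winter, against 67.5, 66.8 and 30.8 CPM in YY-1 (log2 fold change -2.89, SE 0.25, adjusted p = 1.66e-05). C3.435 had 11.4, 11.8 and 14.1 CPM in winter, against 138, 102 and 55.6 CPM in YY-1 (log2 fold change -2.87, SE 0.27, adjusted p = 2.75e-05). Both were low in YY-1 c, where most of the pigment genes were lower too, and low in winter where the pigment genes were high.

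The winter libraries gave a comparison that the low-culture condition had not used. All 8 pigment genes were lowest in winter b among the winter libraries. Of the 127 genes, 45 were lowest in winter b (35.4%, beside 30.7% of all genes with the count minimum), 46 in winter a (36.2%, beside 45.5%) and 36 in winter c (28.3%, beside 23.9%). With TMM factors in the CPM, 60 were lowest in winter b (47.2%, beside 45.1%), and the pigment genes were again lowest there. On either scale the share of the 127 genes that were lowest in winter b was near that of all genes. The highest winter library was winter a in 7 of the 8 pigment genes by library totals and in all 8 with TMM factors. Of the 127 genes, 47 were highest in winter a by library totals (37%, beside 23.8%) and 65 with TMM factors (51.2%, beside 38.2%). How many had both features was not counted, and these differences were not tested. The winter libraries were within 1.5-fold of each other for 92 of the 127 genes (72.4%, beside 78.6%).

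Among the other gene lists drawn from the study, 1 of the 127 genes appeared. This was C2.1146, which the study's drawing of the pathway places at the step from orange to red pigment. It had 4.50, 3.82 and 3.22 CPM in winter, against 12.4, 10.7 and 3.85 CPM in YY-1 a, b and c, and was lower in winter (log2 fold change -1.10, SE 0.34, adjusted p = 0.0232). YY-1 c lay within the range of the winter libraries. The call was lost without YY-1 a, YY-1 b, winter b or winter c, with adjusted p-values of 0.113, 0.0765, 0.0667 and 0.0724. The other gene placed at that step, C6.841, had a ratio of 1.27 in YY-1 c and was not called (log2 fold change -0.68, adjusted p = 0.0502). The study, which tested with DESeq, reports weak expression of the genes for red pigment in both strains and no significant difference. The study's methods set an adjusted p below 0.05, but it analysed further only genes under a smaller P limit. Which limit lies behind its statement on these genes is not said. The edgeR call of C2.1146 at 0.05 and the study's statement may thus rest on unlike thresholds as well as unlike tests.

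None of the 6 acetyl-CoA supply genes was among the 127, and all 6 were higher in winter. The study named these genes, and the NADPH supply genes below, for their rise in these same libraries. Their direction in winter was thus set by how the lists were made and is no separate evidence. C5.304 and C5.305 had ratios of 0.6 and 0.582 in YY-1 c, just outside the limit, while C6.127 had 0.504 and was dropped with the citrinin block. Neither of the 2 NADPH supply genes, C3.60 (6-phosphogluconate dehydrogenase) and C7.667 (glucose-6-phosphate dehydrogenase), was low in YY-1 c, with ratios of 1.23 and 1.39, and both were higher in winter. Of 3 genes for citrate synthase and succinate dehydrogenase and 3 named transcription factor genes, none was among the 127. Nor were C2.25 and C6.140, which the study speculates may be PKS genes for citrinin. Their ratios in YY-1 c were 0.569 and 1.29, and both were lower in winter (log2 fold changes -1.01 and -1.26, adjusted p = 0.0221 and 0.000502).

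The genes were spread over the genome. Scaffold C3 held 27 of them, 2.97% of its genes with the count minimum, C6 held 18 (2.37%) and C2 held 12 (1.14%), beside 1.9% over all scaffolds. The small scaffold00023 held 4 of its 40 genes with the count minimum. Its end genes were kept, whereas those of C1 to C8 were left out yet still count in the shares of C1 to C8. The shares are therefore not fully alike. Of those 4, scaffold00023.20 was lower in winter at 1.58 ± 0.418 CPM in winter and 8.50 ± 3.0 CPM in YY-1 (SD, n = 3 each), scaffold00023.14 was lower too, scaffold00023.19 had a log2 fold change of -1.04 with an adjusted p of 0.0582, and scaffold00023.4 had one of 0.67 with an adjusted p of 0.115. DESeq2's Wald test gave scaffold00023.19 an adjusted p of 0.0289.

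Of the 127 genes, 36 lay beside another in runs of consecutively listed genes. There were 15 pairs and 2 runs of 3 genes, and in 10 of these 17 runs all genes were lower in winter. Counted as neighbouring pairs, both genes were lower in 11 of 19 (57.9%), beside 9.21% of the neighbouring pairs of all tested genes, but 48% of the 127 genes were lower to begin with, and whether neighbours shared the call more than the other genes of the 127 was not tested. How often genes chosen this way would lie side by side was not tested either. Among the pairs with large falls were C3.359 and C3.360 (log2 fold changes -2.89 and -2.44), C7.255 and C7.256 (-2.11 and -2.82) and C8.210 and C8.211 (-2.12 and -2.56). C1.903 and C1.904 went opposite ways. C1.903 had 32.1, 24.2 and 30.4 CPM in winter, against 85.5, 79.6 and 34.6 CPM in YY-1, and was lower in winter (log2 fold change -1.08, adjusted p = 0.00886), whereas C1.904 was higher. Whether the counting used strand is not stated, so overlapping neighbours could share reads.

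Both runs of 3 genes lay near each other on C3, where 6 of the 10 genes listed from C3.49 to C3.58 were low in YY-1 c. In the first, C3.49 had 31.6, 61.9 and 44.6 CPM in winter, against 193, 153 and 75.3 CPM in YY-1 (log2 fold change -1.51, adjusted p = 0.00198). C3.50 had 22.1, 39.7 and 26.9 CPM in winter, against 153, 127 and 60.4 CPM in YY-1 (log2 fold change -1.84, adjusted p = 0.00054), and C3.51 had 91.4, 152 and 97.6 CPM in winter, against 438, 342 and 182 CPM in YY-1 (log2 fold change -1.40, adjusted p = 0.00206). The 3 genes had like profiles, with winter b the highest winter library in each and no overlap between the strains.

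In the second run C3.58 was lower in winter, with 11.6, 15.7 and 13.1 CPM in winter, against 41.3, 37.7 and 16.7 CPM in YY-1 (log2 fold change -1.14, adjusted p = 0.00498). C3.56 and C3.57 had log2 fold changes of -0.05 and -0.06 (adjusted p = 0.919 and 0.884), and winter b had the most of the 6 libraries in both. The 4 genes between the runs, C3.52 to C3.55, had ratios of 0.927 to 1.14 in YY-1 c and were not called, so the low values were confined to the runs within these 10 genes.

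**Figure D4:**
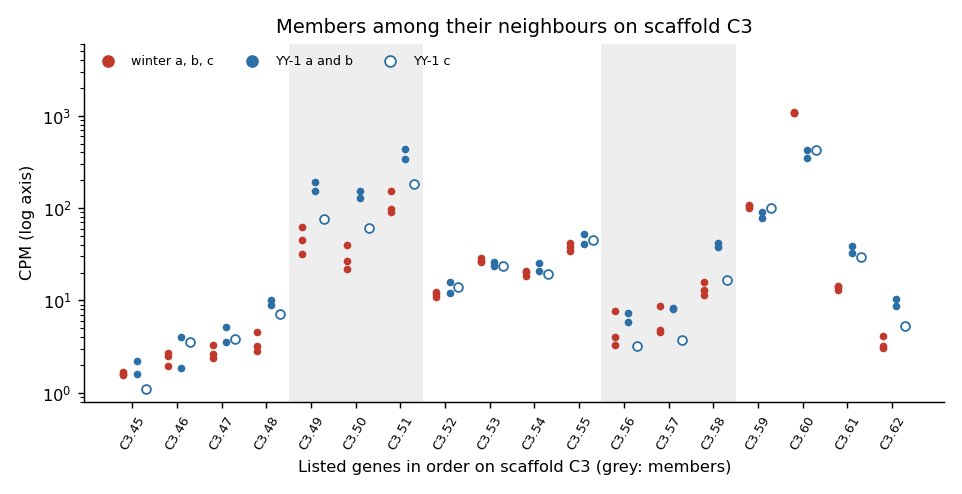
CPM on a log axis of the genes listed from C3.45 to C3.62, in order along the x axis, in winter a to c, in YY-1 a and b and in YY-1 c (open circles); grey bands mark the 6 genes low in YY-1 c. Within the bands YY-1 c lies under YY-1 a and b, and in the 4 genes between the bands its ratio is 0.927 to 1.14.

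The mirrored rule, with YY-1 c high and the count minimum taken on YY-1 c, gave 64 genes after the same exclusions. Of these 16 were lower in winter (25%) and 11 higher (17.2%), shares close to those over all tested genes (25.5% and 22.5%) or under them, with a median log2 fold change of -0.22, and without YY-1 c the numbers were 7 lower and 30 higher with a median of 0.47. The 127 genes had 83 lower and 7 higher without YY-1 c, beside 25.6% and 21.8% of all genes tested without it. Both sets share all libraries and were chosen on YY-1 values, so the difference between them was not tested. Leaving out YY-1 c moves the sets in opposite directions by the choice of genes, so these numbers are no separate evidence.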

How the data were processed

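RNA was sequenced from mycelia of winter and YY-1 (3 libraries each), grouped by the strain in the labels. The authors mapped reads with TopHat2 and counted them per gene with HTSeq (versions 2.0.8b and 0.5.4p2 in the submitters' processing notes), and the deposited values are raw counts. They were analysed as deposited. CPM used library totals. Genes were tested in the whole table with edgeR 4.0.16 under R 4.3.3 (filterByExpr, TMM, glmQLFit, glmQLFTest, strain as the only term, Benjamini-Hochberg threshold 0.05), and 136 genes were removed by the filter. The script was tested on simulated data. Log2 fold changes are winter over YY-1. Poisson intervals are exact.

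The genes and the lists were chosen with earlier results of these data known. Named were the genes of the study's lists, the 6 lowest ratios, the 6 highest levels, the 6 largest falls and rises, all runs of 3, the 4 most and least like the pigment genes and the 3 nearest to the limit on either side. C5.22, C2.34, C1.903 and the other neighbours named were chosen after their values were seen. Alternatives were DESeq2 1.42.0, other scaling, filters and thresholds, other limits in the rule, each library left out and the letters a, b and c as a block. The TMM scale for the order of winter libraries was chosen after seeing the data.

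The labels do not say that the letters pair the libraries. The deviations of same-lettered libraries from their strain means correlated at 0.101, 0.300 and 0.125 for a, b and c, all above 0.1, although winter c correlated at 0.208 with YY-1 a, so the block was read as a pairing taken from the data. With it 2 of the 127 calls changed, including C4.892 (adjusted p = 0.0336, against 0.0574 without it). No pair of libraries matched within sampling noise. None of the gene identifiers (0 of 7491) was found in the reference gene table, which is of another strain, so sequences are not shown.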

Additional observations from a re-analysis of the deposited data

How the results depend on the processing

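Of the 127 genes, 61 were lower and 7 higher in winter. The number lower was 65 with DESeq2, 66 with library totals in place of TMM (which moved the median of all genes to -0.13 from -0.03 on the log2 scale) and 63 with the replicate block (7 higher), and 48 (without YY-1 a) to 83 (without YY-1 c) with 1 library left out. It was 39 with a count minimum of 200 (of 58 genes), 30 with TMM factors in the rule (of 64 genes) and 19 with a ratio limit of 0.45 (of 40 genes), which by construction take fewer genes, and the shares lower were then 67.2%, 46.9% and 47.5%. The number higher was 4 with library totals, 3 at an adjusted p below 0.01, 4 with over 2-fold required, 3 with the count minimum of 200, 3 with TMM factors in the rule, 2 with the ratio limit of 0.45, and 3 (without winter a) to 10 (without YY-1 a) with 1 library left out. Over all tested genes, 25.5% were lower in the main fit, 25.2% with DESeq2, 27.1% with the block and 25.6% without YY-1 c. The shares higher were 22.5%, 24.7%, 25.1% and 21.8%, and 8.92% with over 2-fold required. For the other settings no share over all genes is given, so those numbers have no background beside them.

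Over 34 named genes and 340 alternative values, 296 kept direction and side of the threshold, 18 lost the call, 11 gained it and 15 turned direction. Those that turned were values of C3.56, C3.57 and C5.737, genes that were not called. Their log2 fold changes with 1 library left out ran from -0.43 to 0.19, from -0.35 to 0.12 and from -0.22 to 0.17, and C5.737 was at 0.03 with DESeq2's Wald test, 0.03 with its size factors and 0.02 with the replicate block. Other than C4.892, no named gene changed its call with the block. With library totals alone C1.904, C2.276 and C8.357 were no longer called (adjusted p = 0.0586, 0.0597 and 0.0504). The cause of these changes was not tested. With 9 to 9168 counts in YY-1 c, ratios of the genes with the fewest counts are the least precise.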
